A study of Mus musculus with 9 samples.

Results

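The 7 genes described here encode kinases of, or linked to, NF-κB signalling: *Map3k14* (NIK), *Chuk* (IKKα), *Ikbkb* (IKKβ), *Ikbke* (IKKε), *Tbk1* (TBK1), *Map3k7* (TAK1) and *Map3k8* (Tpl2). They were taken by name among 22238 annotated protein-coding genes, and every ChIP-seq peak whose centre lay within 50 kb of their start site was collected. Of 24630 peaks at 6 h of TNF, 21 met this rule, and of 425 peaks at 0 h, 0 did. The libraries came from *Nfkb2*-/- MEFs, which are fibroblasts from mouse embryos without p100, the precursor of p52. All groups shared this genotype, and no wild-type library was analysed here. The immunoprecipitation used anti-RelA (p65) or anti-RelB antibody, either without TNF (0 h) or after 6 h with 10 ng/ml TNF, and each of these 4 groups had 2 libraries. Per the study's methods, MEFs of C57BL/6 background had been immortalized, and the labels do not say whether the libraries came from separate cultures, so p-values measure the spread between libraries, which may be technical.

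In the canonical pathway, TNF receptor engagement activates TAK1, which activates the IKK complex of IKKα, IKKβ and the scaffold NEMO. IKK then phosphorylates IκB proteins and frees RelA-containing NF-κB dimers. NIK instead activates IKKα, which triggers the processing of p100 and the release of RelB dimers. TBK1 and IKKε phosphorylate interferon regulatory factors, and Tpl2, which is held by the p50 precursor p105, activates the MEK-ERK cascade. Many genes of negative feedback in this system are themselves bound by NF-κB, and the lists were read here for binding at the genes of these kinases.

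The 6 h lists held between 5192 and 7052 peaks per library and between 120352 and 162105 ChIP reads in peaks, and the 0 h lists between 14 and 194 peaks. Total reads are unknown, so a gene with no peak is a gene with no call in these lists, not one shown to be unbound. A peak at 6 h held at least 10 ChIP reads. Peaks of the 4 libraries at 6 h that overlapped by at least 1 bp were joined into sites, which gave 14781 sites, and a site in all 4 libraries had a peak in each of them. Log2 fold is the deposited maximum log2 fold of a peak, ChIP over scaled input reads, and need not come from the window with the most reads.

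Binding after TNF was found at the start sites of *Map3k8* and *Map3k7* in all 4 libraries, and in all 4 at a weak site far upstream of *Map3k14*. *Ikbke* and *Tbk1* had peaks in a single library each, and the genes of the catalytic IKK subunits, *Chuk* and *Ikbkb*, had none within 50 kb. The 21 peaks formed 12 sites, of which 3 were in all 4 libraries and 9 in 1 library, and no site was in 2 or 3 libraries. Of all 14781 sites at 6 h, 1860 were in all 4 libraries, 10042 in 1 library and 2879 in 2 or 3. Thus 5 of 7 kinase genes had a peak within 50 kb, where 43.6% of all protein-coding genes did. A site in all 4 libraries lay within 50 kb of 3 of 7, against a background of 9.85%, and within 1 kb of 2 of 7, against 1.09%. With 7 genes chosen by name, these shares are a description and were not tested.

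**Figure D1:**
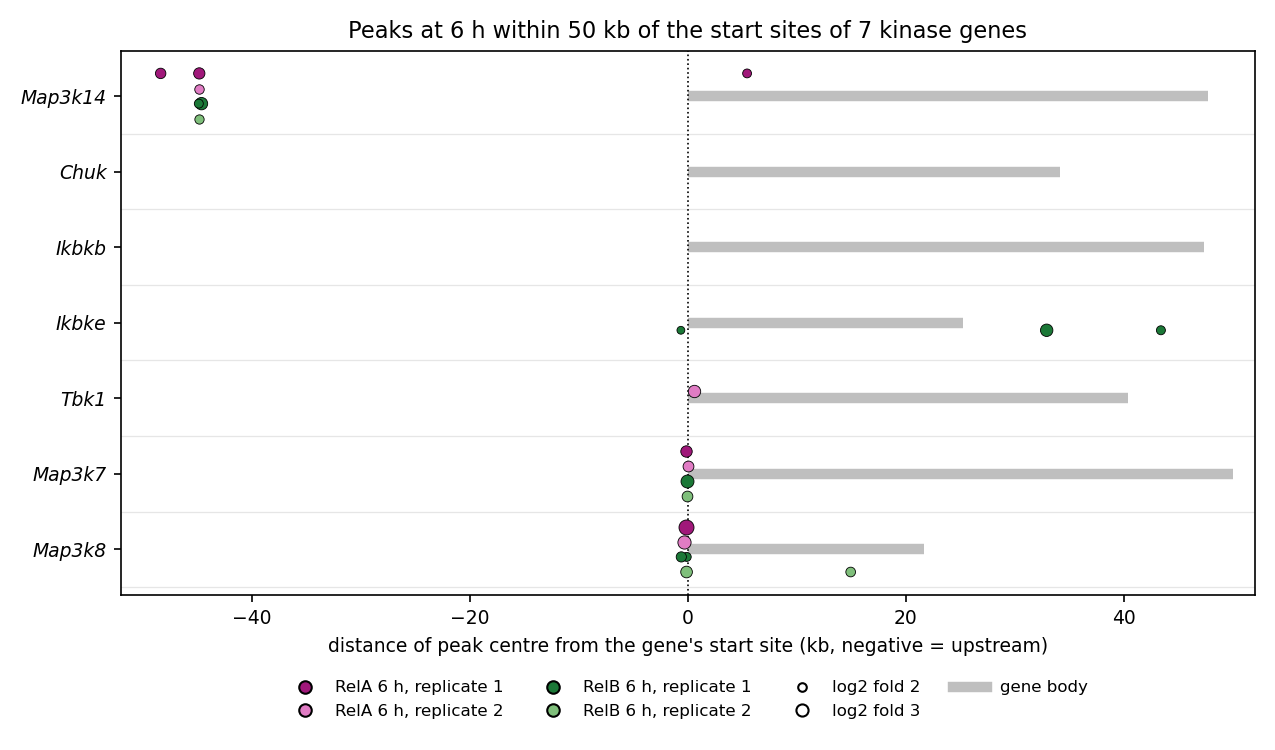
Peaks at 6 h around each kinase gene: the x axis is the distance of the peak centre from the start site in kb, each row is a gene, and each circle is a peak of 1 library, with its area set by the fold over input. Grey bars are gene bodies, drawn to 50 kb at most. Circles of all 4 libraries line up at *Map3k7*, *Map3k8* and far upstream of *Map3k14*, and the rows of *Chuk* and *Ikbkb* are empty.

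Sequences of bound sites are shown because the κB consensus, the motif of 10 bases read by NF-κB dimers, was present at some of these sites and absent from others. They are the plus strand of mm9, 5′ to 3′, and capitals mark consensus matches on either strand, which overlap one another where a run of capitals is longer than 10 bases. The stretch of the *Map3k7* site up to the start site lies at chr4:32050803-32051071, and the *Map3k14* site found in all 4 libraries at chr11:103173544-103173736. The neighbouring *Map3k14* peak, in RelB replicate 1, lies at chr11:103173298-103173524. The *Ikbke* stretches hold an upstream peak of 29 bases with its flanks, chr1:133176753-133176903, and a downstream peak, chr1:133143164-133143379, and the *Tbk1* peak lies at chr10:121023134-121023393.
Map3k7, start site: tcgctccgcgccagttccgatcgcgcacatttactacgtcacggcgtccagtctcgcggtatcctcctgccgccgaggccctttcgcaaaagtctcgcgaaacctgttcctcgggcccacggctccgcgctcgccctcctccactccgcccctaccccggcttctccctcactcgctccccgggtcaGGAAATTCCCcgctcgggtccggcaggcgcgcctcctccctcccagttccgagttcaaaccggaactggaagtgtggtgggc
Map3k14, far upstream, all 4 libraries: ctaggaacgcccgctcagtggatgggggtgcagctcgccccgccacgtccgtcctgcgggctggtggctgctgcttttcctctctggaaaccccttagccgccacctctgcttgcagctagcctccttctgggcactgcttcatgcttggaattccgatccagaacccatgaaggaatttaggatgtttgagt
Map3k14, far upstream, RelB replicate 1: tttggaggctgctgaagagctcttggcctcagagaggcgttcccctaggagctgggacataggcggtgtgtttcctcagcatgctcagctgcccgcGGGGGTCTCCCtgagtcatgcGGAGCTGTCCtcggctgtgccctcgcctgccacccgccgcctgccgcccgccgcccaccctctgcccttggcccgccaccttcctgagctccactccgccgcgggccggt
Ikbke, upstream of the start site: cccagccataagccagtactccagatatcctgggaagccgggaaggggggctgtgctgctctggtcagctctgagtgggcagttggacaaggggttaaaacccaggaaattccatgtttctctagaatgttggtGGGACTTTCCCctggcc
Ikbke, downstream: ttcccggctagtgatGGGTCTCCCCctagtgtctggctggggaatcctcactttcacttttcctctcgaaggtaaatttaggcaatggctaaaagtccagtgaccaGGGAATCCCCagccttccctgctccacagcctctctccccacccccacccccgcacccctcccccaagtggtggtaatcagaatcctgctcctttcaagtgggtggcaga
Tbk1, intron: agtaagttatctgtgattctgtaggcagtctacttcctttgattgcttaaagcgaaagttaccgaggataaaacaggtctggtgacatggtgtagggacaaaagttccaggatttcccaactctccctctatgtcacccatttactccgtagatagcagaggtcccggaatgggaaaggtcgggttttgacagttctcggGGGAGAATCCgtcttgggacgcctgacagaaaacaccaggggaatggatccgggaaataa

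*Map3k8* carried the peaks with the most reads among the 7 genes. Its site (chr18:4353008-4353492, mm9) spans the region just upstream of the start site of the gene (chr18:4331325-4353013, minus strand), with its centre at -237 bp, and is annotated as intergenic. Log2 folds were 3.61 and 3.24 in RelA replicates 1 and 2, against 2.13 and 2.88 in RelB replicates 1 and 2. The RelA peaks held 75 and 57 ChIP reads and the RelB peaks 11 and 32. Both RelA values were above both RelB values, in folds as in reads. In the ranks that the peak caller gave, the RelA peaks ranked 443 of 7052 and 756 of 5688, and the RelB peaks 4288 of 5192 and 2892 of 6698. The FDR of the calls was listed as 0 and 6e-06 for RelA and as 0.0266 and 0.00142 for RelB.

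The mean log2 fold at the *Map3k8* site was 3.43 ± 0.26 for RelA and 2.51 ± 0.53 for RelB (SD, n = 2 each). After each library was centred on its median over all sites in 4 libraries, RelA was higher by 1.00 (SE 0.31, 95% interval 0.32 to 1.69), but this did not pass the threshold of 0.05 (limma, Benjamini-Hochberg over 1860 sites, adjusted p = 0.160, unadjusted p = 0.00820). The absolute difference was smaller than this at 95.3% of those sites. The difference was above 0 in each alternative that kept the site, and none of them called it (adjusted p between 0.0578 and 0.522). With RelB replicate 1 left out, it was 0.65.

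The RelB signal at *Map3k8* was spread over more than 1 peak. RelB replicate 1 had a further peak of 29 reads, log2 fold 2.50 and FDR 0.00575 at chr18:4353508-4353729, separated from the site by 15 bases. The 11 reads inside the site are therefore not all the reads of that library at this promoter. When peaks with gaps of up to 200 bp were joined, an alternative chosen after seeing the data, RelA was higher by 0.83 (limma, adjusted p = 0.207). RelB replicate 2 had another peak of 16 reads and log2 fold 2.35 in an intron, at chr18:4338023-4338139, 14932 bp downstream of the start. Neither of these RelB peaks had a counterpart in another library.

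Peaks at *Map3k8* were displaced along the promoter. Within the site their centres lay at -203 and -334 bp for RelA and at -110 and -124 bp for RelB. The further peak of RelB replicate 1, centred at -606 bp, had more reads and a higher fold than its peak at -110 bp, so the RelB calls lay on either side of the RelA peaks. A pair of κB matches lay in the site, with centres at -98 and -424 bp. The match at -98 bp was inside the peak of RelB replicate 2 and crossed the edge of the peaks of RelB replicate 1 and RelA replicate 1, and the match at -424 bp was inside the peak of RelA replicate 2. The positions of the antibodies' peaks were not tested against each other.

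**Figure D2:**
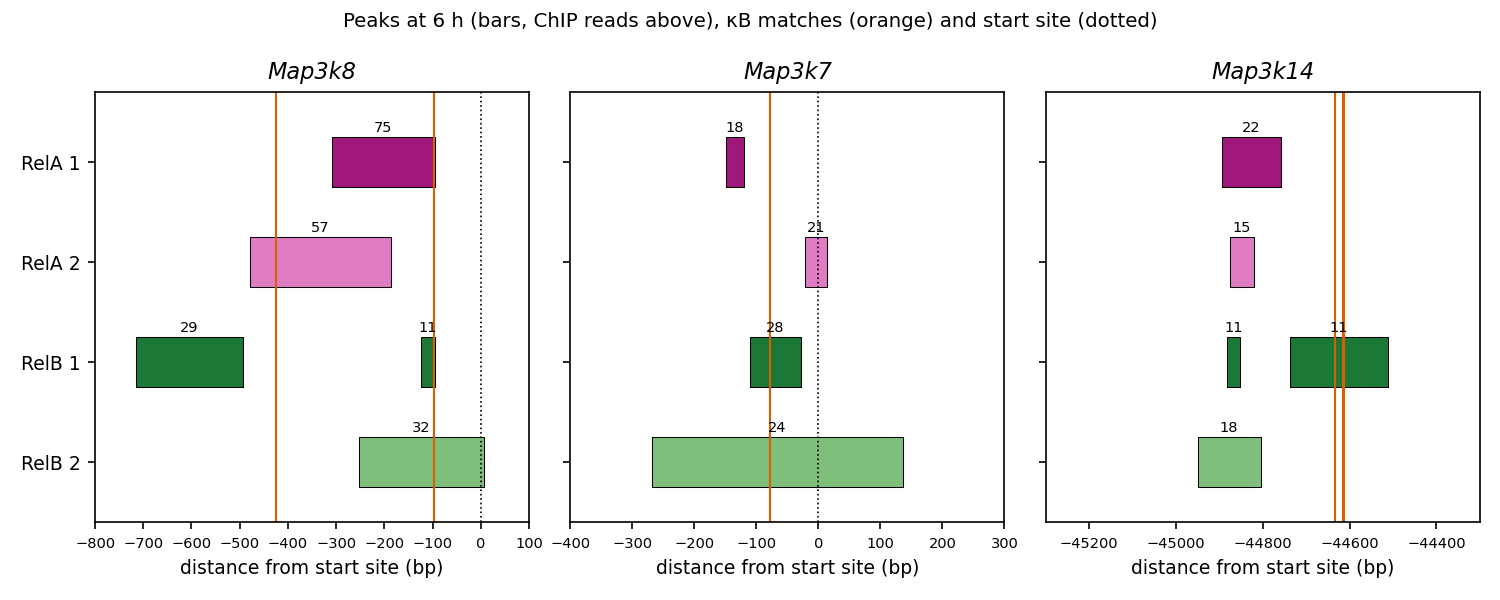
Extent of each 6 h peak (bars, with ChIP reads above them) at the 3 sites found in all 4 libraries, against the distance from the start site in bp. Orange lines are κB matches and the dotted line is the start site. At *Map3k8* and *Map3k7* the bars of the libraries are offset from each other, and at *Map3k14* no match lies within the site itself.

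*Map3k7* encodes TAK1, the kinase upstream of IKK. Its site in all 4 libraries (chr4:32050803-32051208) crosses the start site of the gene (chr4:32051072-32110442, plus strand), with its centre at -66 bp. The log2 folds were 2.83 and 2.67 for RelA and 3.19 and 2.65 for RelB, on 18, 21, 28 and 24 ChIP reads. The ranges of the antibodies overlapped in folds. Both RelB libraries had more reads than both RelA libraries, but in longer peaks (82 and 406 bases for RelB, 29 and 35 for RelA). In the window with the most reads of each peak, RelA had 17 and 17 reads and RelB 22 and 15, so these ranges overlapped as well. All 4 calls had an FDR under 0.01, the largest being 0.000382, and *Map3k7* was the only 1 of the 7 genes whose site in all 4 libraries was kept at that threshold. At *Map3k8* the call of RelB replicate 1 inside the site had an FDR of 0.0266. The further peak of that library, 15 bases outside the site, had 0.00575, so each library had a call under 0.01 at the *Map3k8* promoter.

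The mean log2 fold at *Map3k7* was 2.75 ± 0.11 for RelA and 2.92 ± 0.38 for RelB (SD, n = 2 each). The centred RelA minus RelB difference was -0.087 (95% interval -0.73 to 0.56, limma, adjusted p = 0.912), an interval that leaves room for a difference in either direction. Direction depended on a single library, since the difference was 0.21 with RelB replicate 1 left out.

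The *Map3k7* site was held together by a single library. The RelA peaks were 29 and 35 bases long and did not overlap each other, and only 3 of the 6 pairs of libraries overlapped directly. The peak of RelB replicate 2, 406 bases long, joined the rest. Without that library the site came apart, and the count of kinase genes with a site in all remaining libraries was 2. The κB match of this site, GGAAATTCCC at chr4:32050990-32050999, is centred at -78 bp and stands in capitals in the sequence above. It was inside both RelB peaks, 8 and 11 bp from their centres, and between the RelA peaks, 57.5 and 73.5 bp from theirs.

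Beyond the 50 kb limit, a stronger site in all 4 libraries lay 91546 bp downstream of the *Map3k7* start (chr4:32142117-32143120), past the end of the gene. *Map3k7* has the nearest protein-coding start site to it. Log2 folds there were 3.89 and 3.38 for RelA and 3.64 and 3.93 for RelB, on 65, 46, 76 and 87 reads. Each library had a higher fold and more reads there than at the promoter site.

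*Map3k14* encodes NIK, the kinase of the non-canonical pathway. Its site in all 4 libraries was centred at -44854 bp from the start of the gene (chr11:103081076-103128786, minus strand), in intergenic sequence for which *Map3k14* is the nearest protein-coding start. Log2 folds were 2.79 and 2.28 for RelA and 2.13 and 2.23 for RelB, on 22, 15, 11 and 18 ChIP reads. All 6 pairs of libraries overlapped directly. The site was weak, since its mean log2 fold of 2.36 exceeded that of only 4.62% of all sites in 4 libraries. By comparison, *Map3k7* with a mean of 2.83 exceeded 26.3% and *Map3k8* with 2.97 exceeded 34.7%.

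The mean log2 fold at the *Map3k14* site was 2.54 ± 0.36 for RelA and 2.18 ± 0.07 for RelB (SD, n = 2 each). RelA was higher by 0.44 after centring (95% interval -0.18 to 1.06, limma, adjusted p = 0.469), and by 0.21 without RelA replicate 1 and 0.67 without RelA replicate 2. A peak of RelB replicate 1 with log2 fold 3.07 and 11 reads stood 19 bases away and was counted as a separate site. When the gap was joined, the difference became -0.022. The site in all 4 libraries held no κB match, whereas the adjacent RelB peak held 3, drawn in capitals above, of which 2 overlap by all but 1 base.

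A further 2 peaks of RelA replicate 1 stood near *Map3k14*. A peak of 12 reads and log2 fold 2.09 lay in an intron, 5428 bp downstream of the start (chr11:103123344-103123372), with 3 κB matches within 100 bp of its centre, among them GGGATTTCCC at chr11:103123438-103123447. The other, of 15 reads and log2 fold 2.57, lay at -48370 bp and was nearer to the start of *Arhgap27* than to that of *Map3k14*. Neither had a peak in RelA replicate 2 or in RelB.

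**Figure D3:**
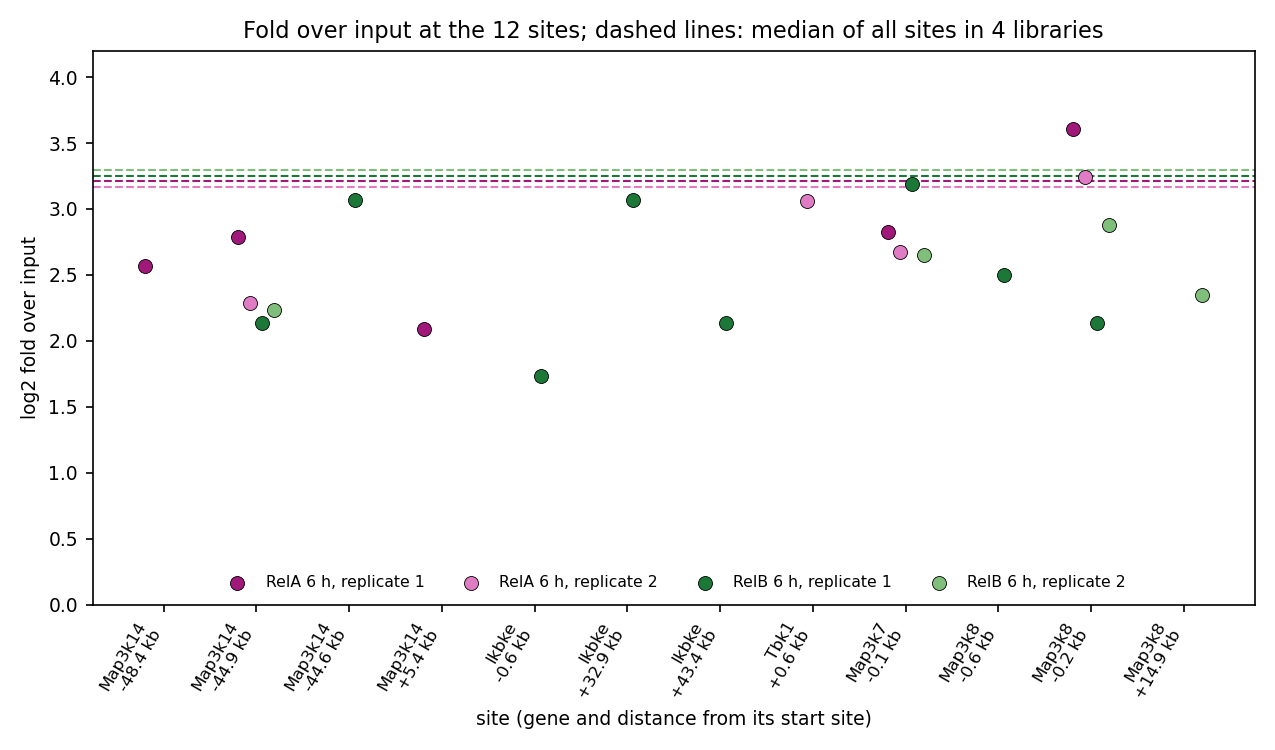
Log2 fold over input (y axis) at the 12 sites (x axis, gene and distance from its start site), with a point for each library that had a peak and dashed lines at the median of each library over all 1860 sites in 4 libraries. Most points lie below the lines, and at *Map3k8* the RelA points lie above them.

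Strength relative to other peaks depended on what the kinase sites were set against. Within the whole list of its own library, the fold exceeded that of 89.3% and 75.9% of peaks for RelA at *Map3k8*, 70.3% for RelB replicate 1 at *Map3k7* and 65.1% for *Tbk1*. At the low end were the upstream peak of *Ikbke*, above 0.944% of its list, and the intron peak of *Map3k14*, above 8.86%. The peaks of RelB replicate 1 inside the *Map3k8* and *Map3k14* sites in all 4 libraries were also low, each above 9.86%. The medians of the whole lists at 6 h were between 2.57 and 2.94, below those of sites in all 4 libraries. The medians over all sites in 4 libraries were 3.21 and 3.17 for RelA and 3.25 and 3.30 for RelB. Of the kinase folds, only those of RelA at *Map3k8*, 3.61 and 3.24, exceeded that median in their own library. Of the 1860 sites tested between the antibodies, 11 passed in limma (0.591%), and 0 of the 3 kinase sites did. The unadjusted p was under 0.05 at 313 of the 1860 sites, and among the kinase sites at *Map3k8* alone.

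The genes of the IKK-related kinases IKKε and TBK1 had calls in 1 library each. *Ikbke* (chr1:133150920-133176183, minus strand) had 3 peaks, all in RelB replicate 1 and all of 11 reads, at -645, +32912 and +43391 bp from the start. Their log2 folds were 1.74, 3.07 and 2.13 and their FDRs 0.0513, 0.0205 and 0.0266. The downstream peaks lay past the end of the gene, with *Rassf5* as the nearest protein-coding start, and the farthest was in an intron of *Rassf5*. The κB match next to the upstream peak, GGGACTTTCC at chr1:133176887-133176896, overlaps a match that starts 1 base later, and both lay outside the called 29 bases. In the other 3 libraries, the nearest peak to the *Ikbke* start was at least 166.7 kb away.

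*Tbk1* (chr10:120983511-121023850, minus strand) had 1 peak, in RelA replicate 2, in an intron 586 bp downstream of the start. It had 15 reads, log2 fold 3.06 and FDR 0.0160, and held a κB match on the minus strand at chr10:121023334-121023343. In the other libraries the nearest peaks were 328.5, 412.9 and 287.5 kb away. Across the 9 sites in 1 library, ChIP reads ranged from 11 to 29 with a median of 12, close to the smallest number that any peak held. Of these 9 sites, 5 were in RelB replicate 1. They include the peaks that stood 15 and 19 bases from the *Map3k8* and *Map3k14* sites in all 4 libraries. Leaving RelB replicate 1 out lowered the number of kinase sites from 12 to 7 and dropped *Ikbke*. Over all genes, 67.9% of the sites at 6 h were in 1 library and 12.6% in all 4.

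For *Chuk* (chr19:44147824-44181970, minus strand) and *Ikbkb* (chr8:23769684-23817061, minus strand), the catalytic subunits of IKK, no library had a peak within 50 kb. The nearest 6 h peaks to the *Chuk* start were 159.7 and 227.9 kb away for RelA, and those of RelB were 99.2 and 159.7 kb away. For *Ikbkb* the nearest were 103.6 and 100.3 kb away for RelA, and 100.3 and 100.1 kb away for RelB. No call of any 6 h library came closer than 99.2 kb to either start site. The *Chuk* promoter is shown because it holds a κB match upstream of the start although no library had a peak there (chr19:44181971-44182220, mm9, the 250 bases upstream, plus strand, match in capitals).
Chuk, upstream of the start site: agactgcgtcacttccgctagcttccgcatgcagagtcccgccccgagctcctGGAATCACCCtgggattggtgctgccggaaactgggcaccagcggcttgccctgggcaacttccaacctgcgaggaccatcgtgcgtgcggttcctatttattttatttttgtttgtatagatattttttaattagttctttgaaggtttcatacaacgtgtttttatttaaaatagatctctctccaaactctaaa

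A second match of the *Chuk* promoter lay just downstream of the start, at +12 bp, and the match shown lay at -58 bp. In RefSeq promoters of 300 bases (GRCm38.p6), which cover 5 of the 7 genes, *Chuk* had 2 matches, *Map3k7* had 1, and *Map3k14*, *Ikbke* and *Tbk1* had 0. Of all 26794 RefSeq promoters, 26.7% held a match on either strand. A match was therefore present at a promoter with no peak, and the *Map3k14* site with peaks in every library had none.

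Over the 12 kinase sites, 6 had a κB match within 100 bp of the centre (50%, Wilson 95% interval 25.4 to 74.6%). The share was 44.3% for all sites at 6 h, 73.9% for sites in all 4 libraries, 33.7% for sites in 1 library and 12.1% for windows of the same length 1000 bp away. The interval of the kinase sites covers the shares of all sites, of sites in all 4 libraries and of sites in 1 library. The 12 sites mix the last 2 kinds, so their pooled share cannot be set against either kind alone. Among the kinase sites in all 4 libraries, only that of *Map3k7* was counted as having a match. The other counted matches were at sites in 1 library, near *Ikbke*, *Map3k14* and *Tbk1*. The matches of *Map3k8* lay more than 100 bp from the centre of its site and are not in this count.

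Before TNF, no library had a peak within 50 kb of any of the 7 genes. Over all protein-coding genes, 253 (1.14%) had a 0 h peak within 50 kb. The nearest 0 h peak to *Chuk* was 498.6 kb away, the nearest to *Ikbkb* was 3871 kb away, and those of the other 5 genes were farther. With 14 to 194 peaks in the 0 h lists, a change at a given kinase gene can be stated only as peaks called at 6 h and not at 0 h.

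Genes that act with these kinases were counted in the same way, from a list of 32, and 20 had a peak within 50 kb (43.6% of all protein-coding genes did) and 8 a site in all 4 libraries (9.85% of all did). All 5 genes of the complex that controls NIK turnover (*Traf2*, *Traf3*, *Birc2*, *Birc3* and *Otud7b*) had a site in all 4 libraries, a count that is a description, since the lists were chosen with earlier results of these data known. *Birc2* and *Birc3*, which encode the cIAP ubiquitin ligases, are neighbours and share their strongest site. It lay in the coding sequence of *Birc3*, at -37812 bp from the *Birc2* start. The *Otud7b* site lay at -34707 bp, in intergenic sequence. Among 7 partners of IKK and TAK1, 5 had a peak and only *Cdc37*, an HSP90 co-chaperone of kinases, had a site in all 4, and *Ikbkg*, the gene of NEMO, had no peak. The strongest *Cdc37* site lay in intergenic sequence, 13740 bp downstream of the *Cdc37* start. Among 4 adaptors of TBK1 and IKKε, 2 had a peak and only *Tank* had a site in all 4, centred at -18 bp. Among 4 Tpl2 partners and substrates, 3 had a peak, and *Nfkb1*, which encodes p105, had a site in all 4. Of 12 other MAP3 kinase genes, 5 had a peak and 0 had a site in all 4.

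The strongest of these partner sites, at *Traf2* and at *Birc2* and *Birc3*, far exceeded those of the kinases, and the others were nearer to them. At *Traf2*, whose product recruits the cIAPs to NIK, log2 folds at chr2:25389435-25390490 were 5.02 and 4.57 for RelA and 5.41 and 5.42 for RelB. The site shared by *Birc2* and *Birc3*, chr9:7872983-7873151, reached 4.60 and 4.94 for RelA, and 4.80 and 5.06 in the RelB libraries. Their means, 5.11 and 4.85, compare with 2.36 at *Map3k14*, the kinase that these proteins control, and each library had a higher fold at both partner sites than at the *Map3k14* site. The means at the strongest sites of the other partners were 4.17 at *Cdc37*, 3.48 at *Traf3*, 3.41 at *Nfkb1*, 3.14 at *Otud7b* and 3.06 at *Tank*. The strongest kinase site by mean, at *Map3k8*, had 2.97.

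**Figure D4:**
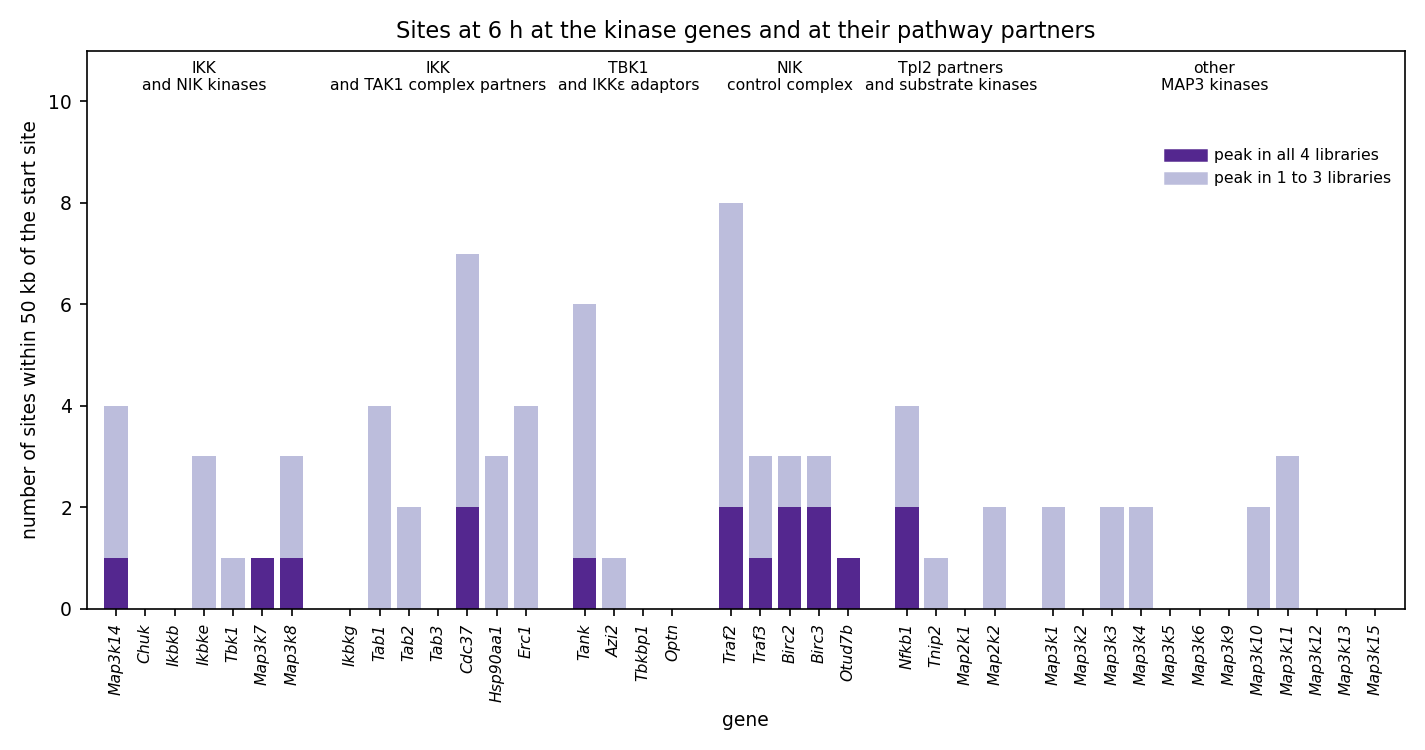
Number of 6 h sites within 50 kb of the start site (y axis) for the 7 kinase genes and 32 partner genes (x axis), split into sites in all 4 libraries (dark) and in 1 to 3 libraries (light). All 5 genes of the NIK control complex have a dark bar, 3 of the 7 kinases do and none of the 12 other MAP3 kinases does.

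By Euclidean distance over the 4 log2 folds of the strongest site, the genes most like *Map3k8* among 2189 others were *9130401M01Rik* and *Fam83a* (distance 0.23), which share a site at which RelA had folds of 3.60 and 3.17, and RelB had 1.92 and 2.84. Those most like *Map3k7* among 2190 were *Btg2* and *Chit1* (0.14), and those most like *Map3k14* were *1110014N23Rik* and *Arl2* (0.33). Each of these pairs of genes shares a site, and the order is over 4 libraries only.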

How the data were processed

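ChIP-seq was performed with RelA and RelB antibodies in Nfkb2-/- MEFs at 0 h and 6 h of TNF, with 2 libraries per group. An input sample is listed in the labels, and a file of it was not used here. Per the study's methods, reads were trimmed with cutadapt and aligned with Bowtie to mm9, where only unique hits were reported, and the authors used cisGenome to call peaks per library against Nfkb2-/- input (window of 200 bases, at least 4 reads, FDR under 0.1, fold above 2). The deposited lists give the FDR of each peak (a q-value), its maximum log2 fold over input and the counts of ChIP and input reads, which the authors did not normalize. Unique alignment leaves out repeats, and calls made per library leave values missing where a peak fell short of the threshold.

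Sites were peaks of the 6 h libraries joined at an overlap of at least 1 bp, and the strongest peak gave a library's fold. Start sites came from GENCODE vM1 on NCBIM37 (mm9). A site was assigned when its peaks' centres lay within 50 kb. At sites in all 4 libraries, RelA was compared with RelB with limma 3.58.1 in R 4.3.3 (lmFit, eBayes, Benjamini-Hochberg, two-sided), after each library was centred on its median. Both strands around site centres (100 bp either side) were searched for the κB consensus. Reads in peaks at 6 h were 120352 to 162105 per library, total depth is unknown, limma's intervals rest on the spread between libraries, and the Wilson interval covers only the counting error of a share of sites. Python 3.11.15 was used for the rest. The joining of peaks, the assignment to genes, the motif search and the limma comparison were tested on simulated data. In the simulated RelA to RelB comparison of 1860 sites, 39% of 200 sites changed by 1 on the log2 scale were recovered, and 100% of those changed by 2. The simulated noise had the same SD at every site, so these shares need not hold for the measured sites.

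The members and lists were chosen with earlier results of these data known. Named genes were the 7 kinases, the nearest gene of each site, partner genes with a site in all 4 libraries, and the closest genes by fold. *Ikbkg* was named outside this rule, after its values were seen. Alternatives covered the FDR, fold, distance, joining rule, equal numbers of peaks (5192), normalization, ChIP reads in place of folds, the motif window, a replicate block and leaving out each replicate. The joining of gaps before limma was added after seeing the data.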

Additional observations from a re-analysis of the deposited data

How the results depend on the processing

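With an FDR under 0.01, sites in all 4 libraries and kinase genes with such a site each fell from 3 to 1, leaving *Map3k7*, the sites in any library numbered 5, and *Ikbke* and *Tbk1* lost their calls. At *Map3k8* each library kept a call at the promoter, but that of RelB replicate 1 lay just outside the site. Within 10 kb of the start, 6 sites remained, and within 25 kb, 7. With gaps of up to 200 bp joined, the 12 sites became 10, and those in all 4 libraries stayed at 3. With a motif window of 200 bp, 75% of kinase sites held a κB match. The number of sites that differed between RelA and RelB across the genome, 11, was unstable: it was 85 with the replicate block, 23 with ChIP reads, 30 at an FDR under 0.01, 4 with gaps of up to 200 bp joined, and between 0 and 40 when 1 library was left out. The counts of 0 came from limma without RelB replicate 1 or without RelB replicate 2, where the unadjusted p was under 0.05 at 193 and 203 sites. The cause was not tested. No kinase site was called under any of these. Replicate numbers come from the labels, which do not say whether same-numbered libraries shared a culture or batch. Same-numbered libraries did not deviate together (correlation of replicate differences between antibodies across 1860 sites, -0.0026). That value cannot decide whether they shared one. With the replicate block *Map3k8* had an adjusted p of 0.0578 (limma). The sign of the difference turned at *Map3k14* (-0.022) with gaps joined and at *Map3k7* without RelB replicate 1, where leaving out 1 library gave between -0.38 and 0.21. With 11 to 75 ChIP reads in the peaks of these sites and unknown total depth, a binding below the caller's limit would not be seen.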
